A study of Mus musculus with 15 samples.

Results

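The neuronal cytoskeleton and axon growth genes described here are 44 genes for the internal skeleton of the neuron and for the proteins that build it, move along it and steer it. They comprise tubulins, microtubule-associated proteins, stathmins, neurofilament subunits, motor and transport proteins, growth cone proteins, actin and membrane skeleton proteins and adhesion molecules, with Rtn1 and Uchl1 as other abundant neuronal genes. A probe was a member where the platform annotation gave it 1 of these symbols and 3 or more of the 15 arrays detected it above the negative control beads, with a detection p below 0.05. Of 69 probes annotated to the list, 57 passed, among 14154 probes that passed the same rule on the whole array, and they covered 40 of the 44 genes, where the whole array's passing probes name 9824 genes. Nefl and Nefh, the light and heavy neurofilament subunits, had a probe that was detected on no array. Tuba4a and Ina are not analysed here. The probe nearest the rule on its outer side was a Map2 probe (ILMN_1240335) detected on 2 arrays, with signals of 36.7 to 67.4 intensity units. Nearest on the inner side was another Map2 probe (ILMN_1259017) detected on 4 arrays, with signals of 37.3 to 69.2.

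Microtubules are hollow polymers of alpha- and beta-tubulin that fill axons and dendrites and serve as tracks for kinesin motors. Microtubule-associated proteins stabilise or crosslink them, whereas stathmins bind free tubulin and favour disassembly. At the tip of a growing axon, the growth cone couples an actin network to adhesion molecules of the cell surface, and Gap43 and its relatives sit on the inner face of its membrane. Many of these genes are expressed at high levels by young cortical neurons while they extend processes.

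The neurons were cortical cells of Swiss albino mice, taken at gestation day 15 to 16 and kept in primary culture to day 5, and their RNA was read on Illumina mouse bead arrays. Kainate, which activates ionotropic glutamate receptors and can kill neurons by excitotoxicity, was given for 5 h, 15 h or 24 h at 100 µM, and each time had 3 arrays. The 6 control arrays carry time 0. Their agent is labelled as none, while the design text calls them vehicle controls. All groups share strain, fetal age and culture age, and no transgene or deletion is named. Each of the 3 beadchips held 2 controls and 1 array of every kainate time, with every group at fixed positions, so chip position and hours in culture cannot be told apart from kainate. Whether replicates came from separate cultures is not stated, and the p-values therefore rest on a spread between arrays that may be technical.

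An array detected 49.5% to 55.2% of its targets, and its median signal lay between 53.4 and 70.4 intensity units. A member's signal on 1 array was the mean of 13 to 77 beads, and the standard error over beads was 1.68% to 11.7% of the signal, with a median of 4.18%. Levels are given below as log2 normalized intensities, which rank arrays for 1 probe but not probes against each other. The SD of a member's level over the 6 controls was 0.0245 to 0.504, with a median of 0.187. Control replicates 1 and 3 stood apart: both lay below the other 4 controls for 27 of the 57 member probes and above them for 5. At 24 h, replicate 3 was the lowest of its group for 42 probes and the highest for 11. Counts of calls are therefore also given without control replicates 1 and 3. All 10 annotated genes of a list for excitatory cortical neurons were detected, Slc17a6 and Tbr1 among them. The list also holds genes that other neurons express, such as Syt1.

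Early in the response, at 5 h, the members moved both ways. Of 57 probes, 12 were higher and 8 were lower at an adjusted p below 0.05 in limma, which is 21.1% and 14%. Over all 14154 probes, 38.6% were called, 17.9% higher and 20.8% lower. The median member difference was 0.05 on the log2 scale, and that of all probes was -0.03. Marcksl1 (4 probes), Cfl1, Mapre3, Ncam1, Tuba1a, Nefm and Mapk8ip1 rose, with 1 probe each of Chl1 and Ank3. Kif5c, Cntn2, Rufy3, Dcx, Kif5a, Kif3c, Tubb2b and Dclk1 fell. Without control replicates 1 and 3 there were 12 higher and 15 lower, with 20.7% and 24.3% of all probes. Leaving out 5 h replicate 1, 2 or 3 brought the lower calls to 4, 5 and 5, and the higher calls were 6 without replicate 2 and 7 without replicate 3. Shares of all probes are not given for fits without 1 array.

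At 15 h the list was mostly lower than in the controls. Of the 57 probes, 31 fell (54.4%) and 2 rose (3.51%), where 45.3% of all probes were called, 23.4% lower and 21.8% higher. The median member difference was -0.41, against -0.03 for all probes. The 31 probes covered all 4 tubulins tested, 3 of 4 stathmin genes, Gap43, Basp1, Klc1, Kif21b, Chl1, Uchl1 and Rtn1, and the 2 that rose were Ncam1 and Dclk1. Without control replicates 1 and 3 there were 40 lower and 4 higher calls, with 25.7% and 24.1% of all probes, and without control replicate 1 alone there were also 4 higher. With 1 array left out at a time, lower calls numbered 23 to 36.

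At 24 h the counts were again 31 lower and 2 higher, while 43% of all probes were called, 21.9% lower and 21.1% higher. The median member difference was -0.42, against -0.01 for all probes. Both late times had 26 lower member probes in common, and 17.9% of all probes were lower at both. The 2 comparisons use the same controls. The 2 higher probes were those of Dclk1 and a dim Ank3 probe. Without control replicates 1 and 3 there were 35 lower and 4 higher calls, with 24.3% and 23.4% of all probes. With 1 array left out at a time, lower calls numbered 22 to 32. Without 24 h replicate 3, 10 member probes lost their 24 h call and 2 gained one.

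Each of the 3 beadchips held 1 array of every time beside 2 controls of its own, and the 15 h fall was seen on all of them. The median member difference at 15 h was -0.30, -0.38 and -0.54 on beadchips 1, 2 and 3, with 46, 45 and 47 of 57 probes below 0. At 24 h it was -0.22, -0.24 and -0.63, with 38, 40 and 47 probes below 0. At 5 h the chips gave 0.06, 0.12 and -0.03. These per-chip values were computed for member probes only, so none for all probes stand beside them. With the beadchip as a block in the fit, calls were 12 higher and 7 lower at 5 h, 2 higher and 30 lower at 15 h, and 4 higher and 28 lower at 24 h. The shares of all probes in that fit are not given here.

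Lower calls outnumbered higher ones at 15 h and 24 h however the arrays were scaled, but the counts moved. With arrays centred on their medians in place of quantile normalization, the median of all probes at 24 h moved to -0.19, and with the authors' deposited ratios to -0.11. The share of called probes of the whole array that were higher was 46.3%, 48.2% and 49.1% at 5 h, 15 h and 24 h as reported here, 61.8%, 40.7% and 22.4% with median centring, and 59.4%, 41% and 25.4% with the ratios. Member calls under median centring were 17 higher and 4 lower at 5 h, 1 higher and 34 lower at 15 h, and 0 higher and 41 lower at 24 h. Of all probes, 21.5% were then higher and 13.3% lower at 5 h, 17.3% and 25.3% at 15 h, and 10.7% and 37% at 24 h. The ratios gave 19 and 5, 2 and 35, and 0 and 40 member calls, where 21.6% and 14.8%, 18% and 25.9%, and 11.9% and 35.1% of all probes were called.

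**Figure D1:**
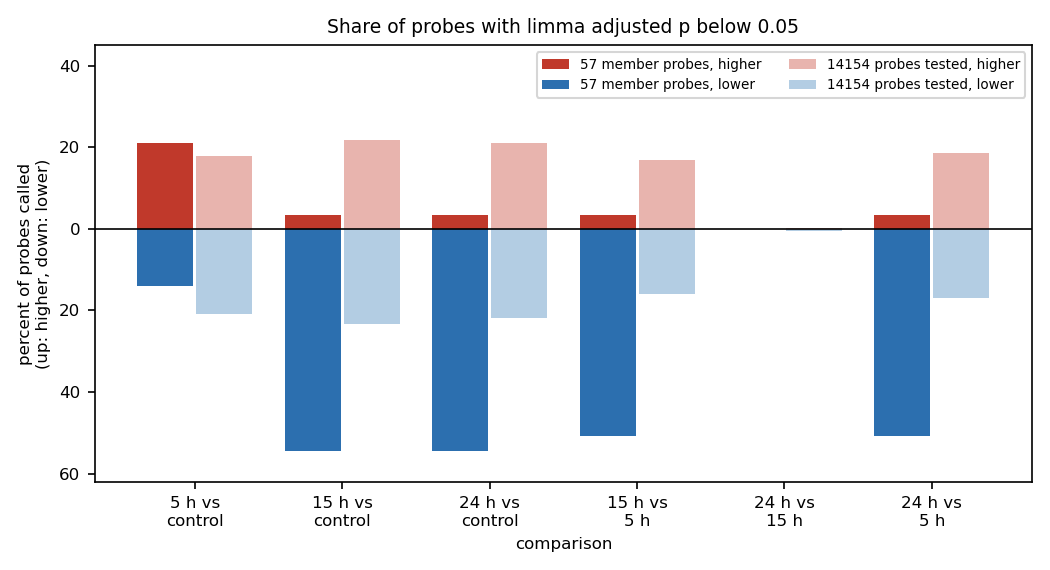
Percent of probes with a limma adjusted p below 0.05 in each of 6 comparisons, drawn upward for higher and downward for lower in the first-named group, for the 57 member probes (dark) and all 14154 probes (pale). At 15 h and 24 h, 54.4% of member probes were lower than the controls, against 23.4% and 21.9% of all probes, and between 24 h and 15 h no member probe was called.

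Setting the kainate times against each other, 29 member probes were lower and 2 were higher at 15 h than at 5 h, where 33% of all probes were called, 16% lower and 17% higher. Leaving out replicate 2 at 5 h or at 15 h left 1 higher probe. The same counts, 29 lower and 2 higher, came from 24 h against 5 h, where 35.6% of all probes were called, 17% lower and 18.6% higher. Both higher probes in each comparison were those of Dclk1 and Kif5c. Between 24 h and 15 h limma called 0 of 57 member probes, and 0.643% of all probes. At an unadjusted p below 0.05 there were 8 member probes, and the share of all probes at that unadjusted threshold is not given here. Median centring called 3 lower and the authors' ratios 2 lower. Of all 14154 probes, centring called 380 lower and the ratios 498. These comparisons share arrays with those above.

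Markers of other cells moved at the same times, and their part in the members' changes was not tested. Beside the counts below, 17.9%, 21.8% and 21.1% of all probes were higher at 5 h, 15 h and 24 h. The shares of all probes that were lower were 20.8%, 23.4% and 21.9%. Of 11 astrocyte markers tested, 5, 8 and 7 rose at 5 h, 15 h and 24 h, and Aldoc fell at 24 h. Their summed level went from 18125 to 19164 intensity units in the controls to 23193 to 23902, 37185 to 38408 and 31290 to 35604. Of 10 neural progenitor markers, 4, 9 and 6 rose and none fell, with sums of 6631 to 7898 in the controls and 11466 to 12524, 19288 to 20346 and 16368 to 18169 at the 3 times. Of 10 genes on the excitatory neuron list, 1, 2 and 2 rose and 5, 6 and 6 fell. Their median log2 differences were -0.21, -0.45 and -0.31, against -0.03, -0.03 and -0.01 for all probes. The sum of the neuron markers, in which the brightest genes weigh most, overlapped between groups. It was 8824 to 11378 in the controls and 9306 to 9517, 9248 to 9689 and 8726 to 10469 with kainate. Of 7 microglia markers, 0, 4 and 4 rose and 1, 1 and 0 fell (Aif1 both times), with sums of 297 to 331 in the controls and 281 to 283, 567 to 590 and 483 to 763 with kainate. Of 5 fibroblast markers, 3 rose at each time and 1, Dcn, fell at 15 h and 24 h. Their sum was 1188 to 1360, then 1393 to 1431, 705 to 797 and 532 to 648, and the late differences of Dcn were -1.98 and -2.44 on the log2 scale. Of 8 oligodendrocyte markers, 1, 0 and 3 rose and 3, 1 and 0 fell, and their sum was 11414 to 12731, then 8460 to 9121, 10726 to 11488 and 12907 to 15583. Neither of the 2 endothelial markers tested was called. Slc1a2, S100b, Mag, Itgam, Flt1, Kdr, Tek, Col1a2, Lum, Postn and Pax6 were detected on no array. In RNA from a whole culture, fewer neurons and less RNA per neuron cannot be told apart.

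**Figure D2:**
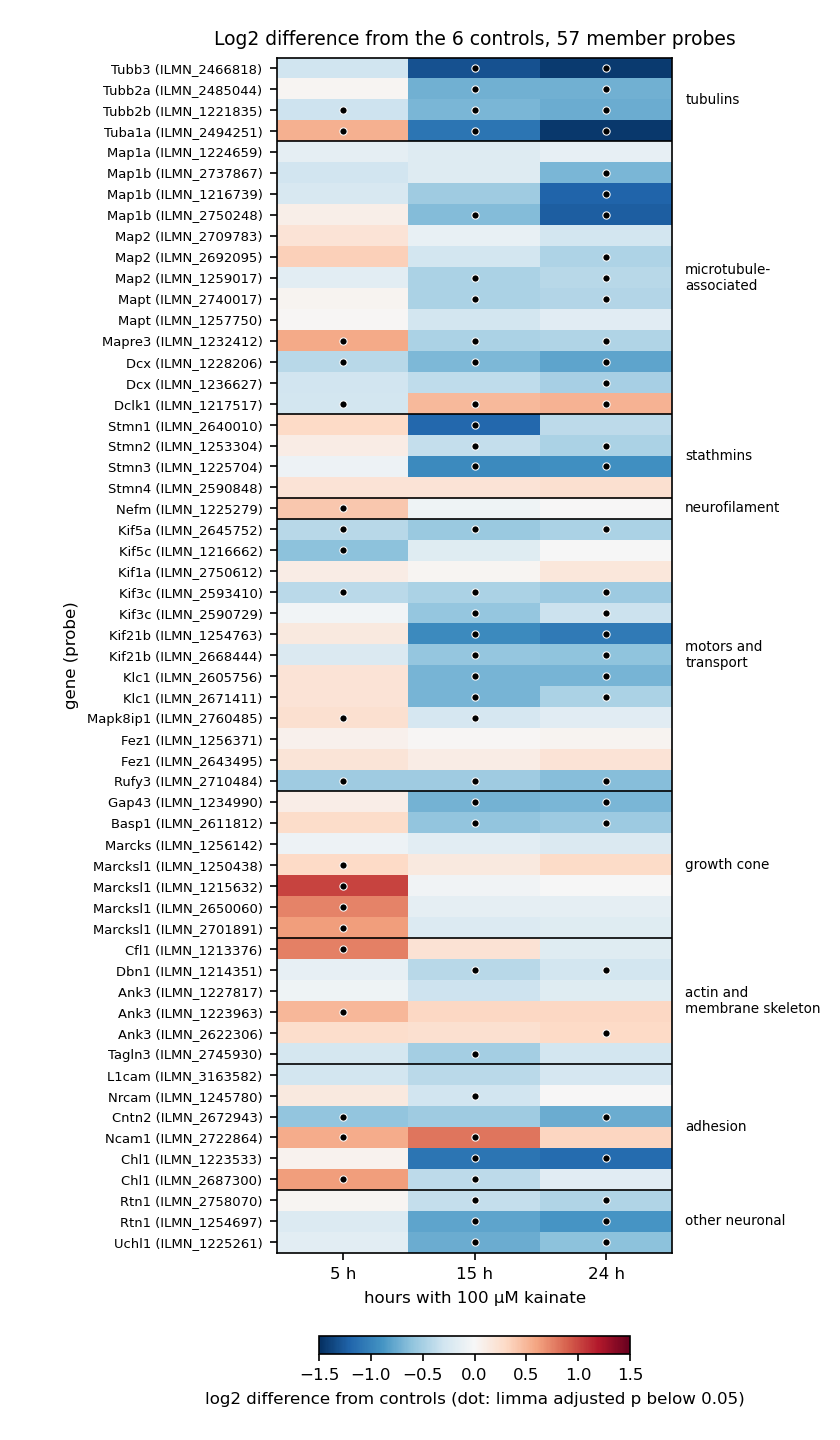
Log2 difference from the 6 controls for each of the 57 member probes (rows, grouped by role) at 5 h, 15 h and 24 h of 100 µM kainate (columns), with a dot where the limma adjusted p is below 0.05. Probes detected on no array of a group are shown at their fitted value. The 5 h column mixes red (higher) and blue (lower) cells, of which 12 and 8 carry a dot. The 15 h and 24 h columns each hold 31 blue and 2 red cells with a dot.

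All 4 tubulin probes among the members fell at 15 h and 24 h, where 23.4% and 21.9% of all probes were lower, and they differed at 5 h. Tubb3, the neuron-specific beta-III tubulin (ILMN_2466818), had levels of 8.0, 8.21 and 8.42 in the controls (lowest, median and highest of 6, as for every member below). On the 3 arrays of each time it was at 7.92, 8.0 and 7.81 at 5 h, 6.76, 7.18 and 6.74 at 15 h, and 6.5, 6.84 and 6.99 at 24 h. The late arrays lay entirely below those of the controls and of 5 h. The fall was 2.48-fold at 15 h (log2 difference -1.31 ± 0.13 SE, limma adjusted p = 3.83e-07) and 2.7-fold at 24 h (-1.43 ± 0.13, adjusted p = 1.67e-07). At 5 h the difference was -0.30 ± 0.13 and missed the threshold (adjusted p = 0.0716). It passed without control replicates 1 and 3, at -0.37.

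Tuba1a, the main alpha-tubulin of developing neurons (ILMN_2494251), first rose and then fell. Its levels were 11.42, 11.77 and 12.23 in the controls, 12.66, 12.24 and 12.13 at 5 h, 10.68, 10.80 and 10.68 at 15 h, and 10.16, 10.04 and 10.90 at 24 h. At 5 h only 2 of 3 arrays lay above every control, while all late arrays lay below them. The difference was 0.53 ± 0.19 at 5 h (adjusted p = 0.0367), -1.09 ± 0.19 at 15 h (adjusted p = 0.000187) and -1.45 ± 0.19 at 24 h (adjusted p = 1.31e-05). The 5 h call was lost in 5 of 15 fits that left out 1 array (control replicate 4, 5 or 6, or 5 h replicate 1 or 2), with values of 0.37 to 0.64. From 5 h to 24 h Tuba1a fell 3.93-fold (-1.98 ± 0.22, adjusted p = 6.97e-06).

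Tubb2b and Tubb2a are paired beta-tubulin genes of near-identical protein. Tubb2b (ILMN_1221835) was at 12.72, 12.95 and 13.04 in the controls, 12.62, 12.61 and 12.64 at 5 h, 12.22, 12.21 and 12.32 at 15 h, and 12.28, 12.28 and 11.97 at 24 h. Every kainate array lay below every control. It fell by 0.68 at 15 h and 0.75 at 24 h on the log2 scale (SE 0.10, adjusted p = 2.27e-05 and 9.05e-06). The fall of 0.31 ± 0.10 at 5 h (adjusted p = 0.0181) was lost without 5 h replicate 1 or 2 and under both other scalings, at -0.09 and -0.11. Tubb2a (ILMN_2485044) was near background, at 4.69, 5.18 and 5.67 in the controls and 4.94, 5.15 and 5.66 at 5 h. It was detected on no array at 15 h (4.36, 4.44 and 4.68) or 24 h (4.42, 4.25 and 4.80). The controls were therefore at least 1.41-fold higher than 15 h (adjusted p = 0.00937) and at least 1.4-fold higher than 24 h (adjusted p = 0.0097). Such a bound takes the lowest detected signal of an array where the probe itself was dimmer. The 24 h call of Tubb2a was lost without 24 h replicate 2. At 5 h the paralogs differed in their values, 0.03 ± 0.21 for Tubb2a and -0.31 ± 0.10 for Tubb2b, but that difference was not tested. Whether a tubulin probe also binds transcripts of a paralog was not tested.

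Because these tubulins fell together, the sequence before their start sites is shown, 250 bases 5′ to 3′ on the gene's strand, from RefSeq on GRCm38.p6. Capitals mark matches to the motifs, each searched on both strands. They are the cyclic AMP response element, CRE (TGACGTCA), the AP-1 site with the letters TGANTCA, the GC box spelled as GGGCGG, the TATA box, for which the letters TATAAA were searched, and the Egr site (GCGNGGGCG), which can overlap a GC box. The windows are chr8:123411303-123411552 (plus strand) for Tubb3, chr15:98953502-98953751 (minus) for Tuba1a and chr13:34078009-34078258 (minus) for Tubb2a.
Tubb3: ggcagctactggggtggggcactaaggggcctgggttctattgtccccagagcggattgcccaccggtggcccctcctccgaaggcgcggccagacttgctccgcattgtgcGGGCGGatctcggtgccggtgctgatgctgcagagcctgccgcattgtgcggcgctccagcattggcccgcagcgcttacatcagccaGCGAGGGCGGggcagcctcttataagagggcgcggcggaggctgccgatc
Tuba1a: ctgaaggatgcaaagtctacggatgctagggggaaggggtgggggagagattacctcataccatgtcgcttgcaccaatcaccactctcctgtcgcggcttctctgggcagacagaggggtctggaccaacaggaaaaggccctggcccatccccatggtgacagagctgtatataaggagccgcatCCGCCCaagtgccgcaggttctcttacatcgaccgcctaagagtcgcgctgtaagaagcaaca
Tubb2a: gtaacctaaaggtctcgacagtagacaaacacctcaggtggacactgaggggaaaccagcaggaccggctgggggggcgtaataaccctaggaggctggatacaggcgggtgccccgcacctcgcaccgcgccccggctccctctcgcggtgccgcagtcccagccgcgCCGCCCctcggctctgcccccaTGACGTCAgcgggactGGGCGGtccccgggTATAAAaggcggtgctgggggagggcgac
Tubb3 held 2 GC boxes, the second overlapping an Egr match that starts 50 bases before the start site. Tuba1a held 1 GC box and no other match. Tubb2a held a CRE match 59 bases before the start and a TATA box at 29 bases, with 2 GC boxes. Searches over whole table windows (250 bases before to 50 after a start) found the CRE letters in 1.79% of 32817 windows and in 3 of 37 windows of the 27 member genes listed there, those of Tubb2a, Klc1 and Kif5c. AP-1 letters were in 7.81% of all windows and in 1 member window, a second start of Dclk1. The GC box was in 35.6% of all windows and 54.1% of member windows, the TATA box in 13.6% and 18.9%, and the Egr letters in 5.56% and 5.41%. Among 19 windows of the 14 genes whose brightest probe was lower at both 15 h and 24 h, CRE was in 2, AP-1 in 0, Egr in 2, the TATA box in 4 and the GC box in 10. A match describes the letters only.

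**Figure D3:**
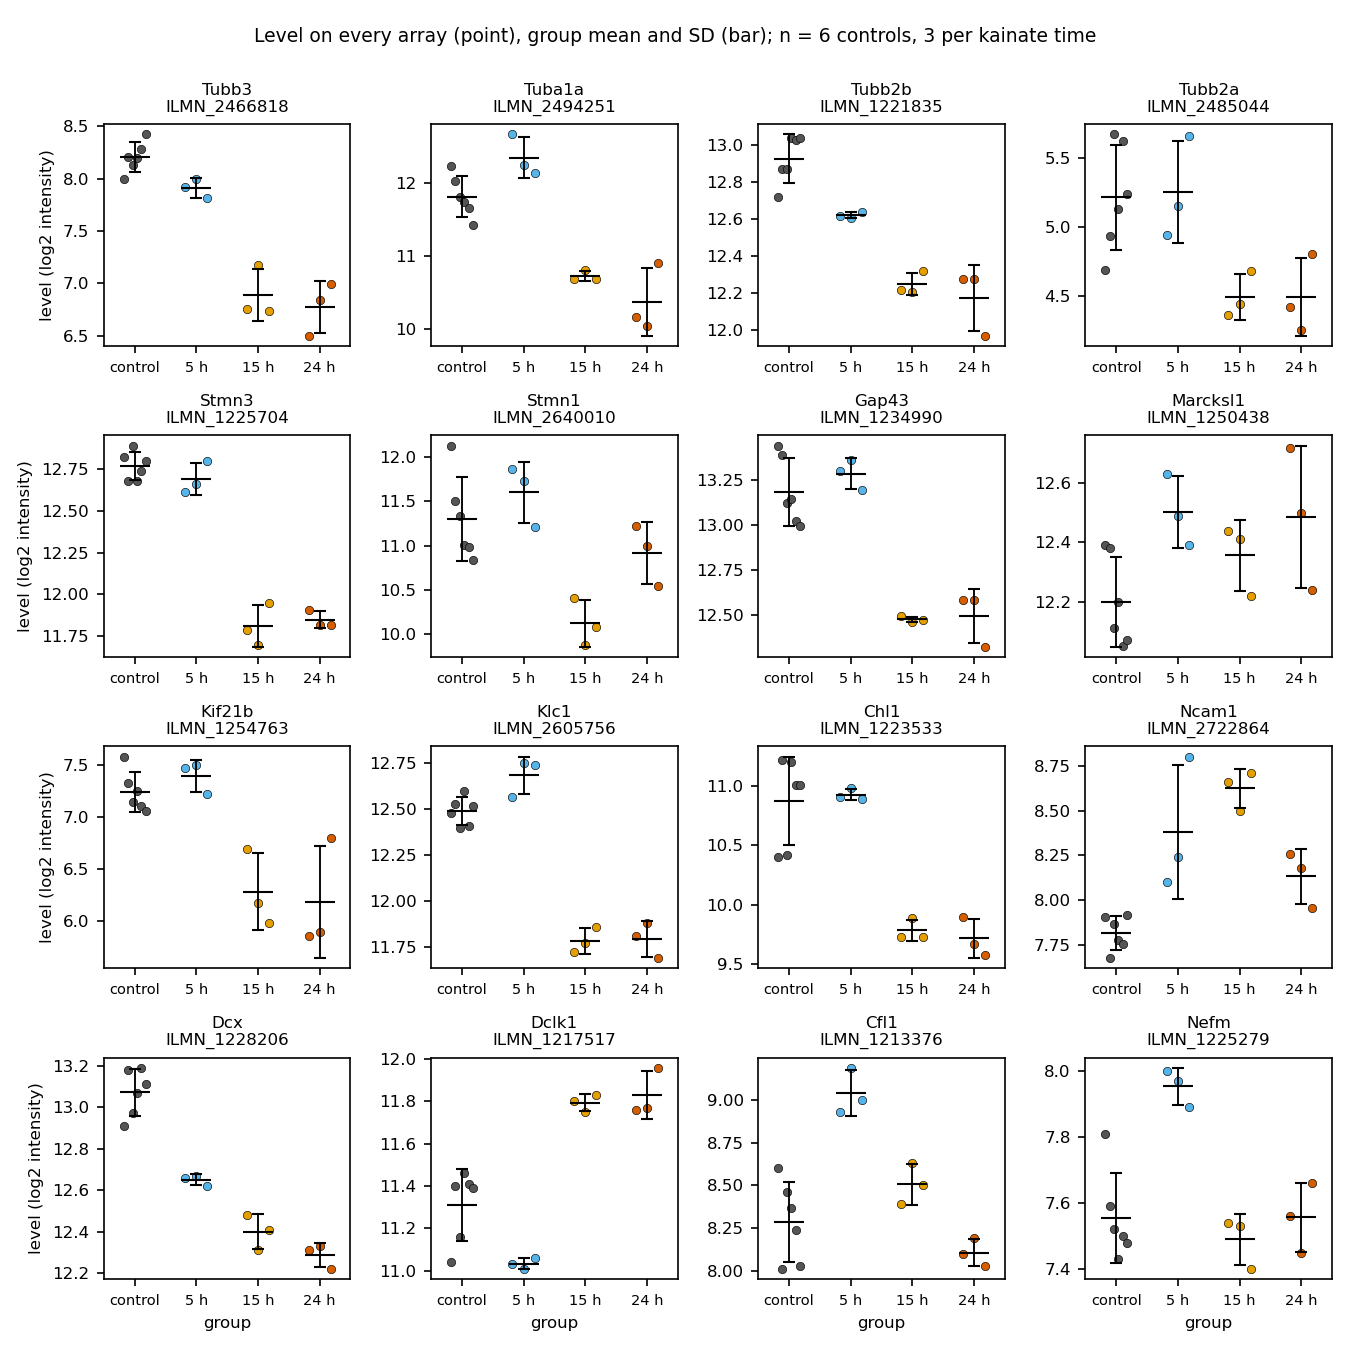
Level (log2 normalized intensity) of 16 members on every array by group: points are arrays, the horizontal line is the group mean and the bar its SD, with n = 6 controls and 3 arrays per kainate time, and each panel has its own vertical scale that does not start at 0. Tubb3, Tuba1a, Tubb2b, Stmn3, Gap43, Klc1 and Chl1 at 15 h and 24 h lie below every control, Dclk1 lies above every control there, and Cfl1 and Nefm are highest at 5 h.

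Among the 13 probes for microtubule-associated proteins, 5 fell at 15 h and 9 at 24 h, with 1 rise at each time. Several genes had more than 1 probe, and by brightest probe 3 and 4 of 7 genes fell. Of all probes, 23.4% and 21.9% were lower. Dcx, doublecortin, stabilises microtubules in migrating and young neurons, and its brightest probe (ILMN_1228206) fell at all 3 times. Levels were 12.91, 13.09 and 13.19 in the controls, 12.66, 12.67 and 12.62 at 5 h, 12.48, 12.31 and 12.41 at 15 h, and 12.31, 12.33 and 12.22 at 24 h. No kainate array reached the lowest control. The differences were -0.42 ± 0.08, -0.67 ± 0.08 and -0.79 ± 0.08 (adjusted p = 0.000781, 5.58e-06 and 1.17e-06). With median centring the 5 h difference was -0.21 and missed the threshold (adjusted p = 0.178). A dimmer Dcx probe (ILMN_1236627) was called at 24 h alone, at -0.50 ± 0.17 (adjusted p = 0.0243), a call lost without 24 h replicate 2 or 3. Without control replicates 1 and 3 it was also called at 5 h (-0.53) and 15 h (-0.62).

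Dclk1, a doublecortin-like kinase that also binds microtubules, went the other way late (ILMN_1217517). It was at 11.04, 11.40 and 11.46 in the controls, 11.03, 11.01 and 11.06 at 5 h, 11.80, 11.75 and 11.83 at 15 h, and 11.76, 11.77 and 11.96 at 24 h. The late arrays all lay above the controls, whereas the 5 h arrays overlapped the lowest control. The differences were -0.27 ± 0.10 at 5 h (adjusted p = 0.0363), 0.49 ± 0.10 at 15 h (adjusted p = 0.000667) and 0.52 ± 0.10 at 24 h (adjusted p = 0.000401). The late rise missed the threshold with median centring, at 0.28 (adjusted p = 0.0828) and 0.03 (adjusted p = 0.851), and at 24 h with the authors' ratios, at 0.10 (adjusted p = 0.439). The 5 h fall was lost under both scalings (-0.18 and -0.20) and in 7 of 15 fits without 1 array (control replicate 2, 4, 5 or 6, or any 5 h replicate).

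Mapre3 encodes EB3, which tracks growing microtubule ends (ILMN_1232412). Its levels of 5.56, 5.78 and 5.94 in the controls became 6.60, 6.26 and 6.19 at 5 h, 5.29, 5.41 and 5.21 at 15 h, and 5.66, 4.87 and 5.46 at 24 h. All 5 h arrays were above and all 15 h arrays below the controls, and at 24 h replicate 1 overlapped them. It rose by 0.57 ± 0.15 at 5 h (adjusted p = 0.00637) and fell by 0.48 ± 0.15 at 15 h and 0.45 ± 0.15 at 24 h (adjusted p = 0.0136 and 0.0199). Each of the 3 calls was lost without 1 array: 5 h replicate 1, 15 h replicate 3 and 24 h replicate 2, the last leaving -0.22.

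Map1b, a large microtubule-binding protein of growing axons, had 3 probes. The brightest (ILMN_2737867) was at 11.62, 12.31 and 12.55 in the controls and 11.90, 11.88 and 10.65 at 24 h, so that replicate 3 alone lay below the controls. It was called at -0.68 ± 0.26 (adjusted p = 0.045), a call lost in 11 of 15 fits without 1 array, and the value was -0.26 without 24 h replicate 3. The other Map1b probes (ILMN_1216739 and ILMN_2750248) lay below every control on all 24 h arrays, by 1.20 ± 0.21 and 1.24 ± 0.20 on the log2 scale (adjusted p = 0.000252 and 0.000103). At 15 h, ILMN_2750248 fell by 0.65 ± 0.20 (adjusted p = 0.0142; lost without 15 h replicate 1), and ILMN_1216739 was at -0.53 ± 0.21 (adjusted p = 0.0523). The latter passed the threshold with median centring (-0.69), with the authors' ratios (-0.67) and without control replicates 1 and 3 (-0.76).

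Mapt encodes tau, which binds axonal microtubules, and its brightest probe (ILMN_2740017) fell by 0.47 ± 0.13 at 15 h and 0.44 ± 0.13 at 24 h (adjusted p = 0.00919 and 0.0139). The 15 h call was lost without 15 h replicate 2, and the 24 h value was -0.21 without 24 h replicate 3 and missed the threshold. A dimmer Mapt probe (ILMN_1257750) was at -0.28 ± 0.18 and -0.17 ± 0.18 and was not called, but it passed the threshold at 15 h and 24 h with median centring (-0.42 and -0.60), with the authors' ratios (-0.40 and -0.52) and without control replicates 1 and 3 (-0.50 and -0.38). Map2, the dendritic counterpart of tau, was not called by its brightest probe (ILMN_2709783) at any time, with 24 h at -0.28 ± 0.16 (adjusted p = 0.164). At 24 h it was lower with median centring (-0.59), with the ratios (-0.47) and without control replicates 1 and 3 (-0.50), and with the last also at 15 h (-0.33). Of its dimmer probes, ILMN_2692095 fell at 24 h (-0.46 ± 0.17, adjusted p = 0.0368), a call lost in 7 of 15 fits without 1 array. ILMN_1259017 was detected on no array at 15 h or 24 h, where the controls were at least 1.08- and 1.09-fold higher (adjusted p = 0.0276 and 0.0483). Those calls were lost in 6 and 13 of the 15 fits. Map1a, the adult relative of Map1b, was not called, with differences of -0.13, -0.19 and -0.12 (SE 0.14), of which that at 15 h passed the threshold without control replicates 1 and 3 (-0.34).

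**Figure D4:**
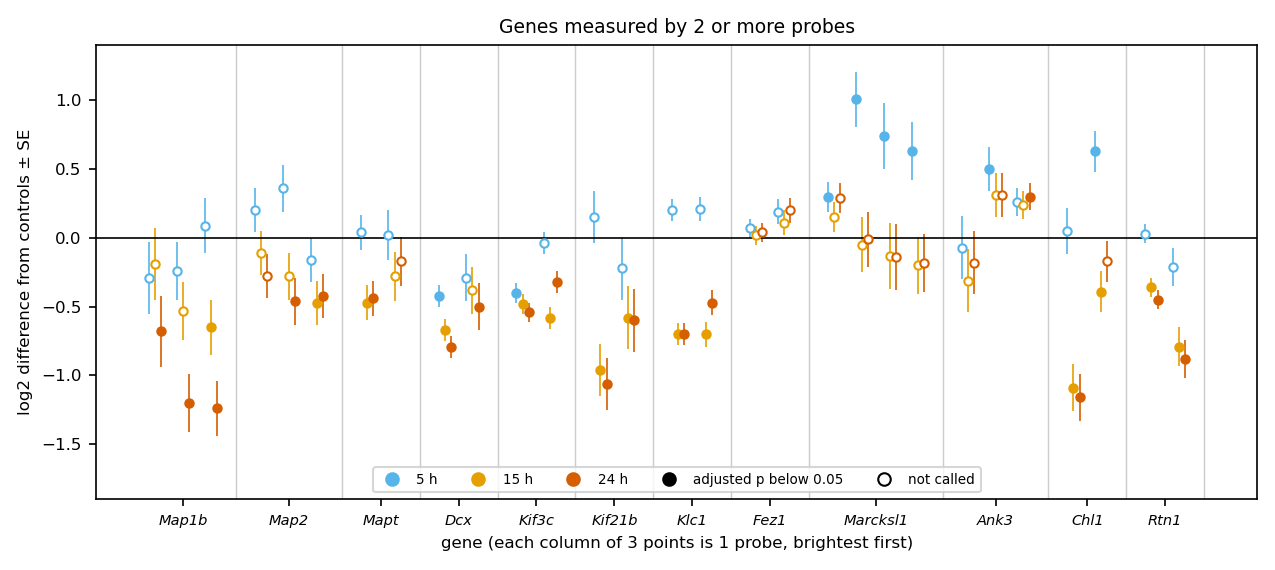
Log2 difference from the controls with its SE for the 12 genes measured by 2 or more probes, brightest probe first, at 5 h (light blue), 15 h (orange) and 24 h (red), filled where the limma adjusted p is below 0.05. The 3 dimmer Marcksl1 probes rise by 0.63 to 1.01 at 5 h against 0.30 for the brightest, and the 2 Chl1 probes differ at 5 h, at 0.05 and 0.63.

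Of 4 stathmin genes, 3 fell at 15 h and 2 at 24 h, where 23.4% and 21.9% of all probes were lower. Stmn3 (ILMN_1225704) had levels of 12.68, 12.77 and 12.89 in the controls, 12.61, 12.66 and 12.80 at 5 h, 11.79, 11.70 and 11.95 at 15 h, and 11.91, 11.82 and 11.82 at 24 h. Controls and 5 h arrays overlapped, and late arrays formed a separate lower group. It fell by 0.95 ± 0.08 and 0.92 ± 0.08 (1.94- and 1.89-fold, adjusted p = 1.49e-07 and 2.48e-07), with -0.08 ± 0.08 at 5 h.

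Stmn1, the widely expressed founding member (ILMN_2640010), varied more between arrays and was lowest at 15 h. The controls were at 10.84, 11.17 and 12.13, the 5 h arrays at 11.86, 11.73 and 11.21, those at 15 h at 10.41, 9.88 and 10.08, and those at 24 h at 11.22, 10.99 and 10.54. The 15 h arrays were below every control, and 24 h overlapped the controls. The difference was -1.18 ± 0.24 at 15 h (2.26-fold lower, adjusted p = 0.000872) and -0.39 ± 0.24 at 24 h (adjusted p = 0.222). The 24 h difference passed the threshold with median centring (-0.86, adjusted p = 0.00957) and with the authors' ratios (-0.78, adjusted p = 0.0232). Stmn2, also called SCG10 and abundant in growth cones, fell by 0.36 ± 0.11 at 15 h and 0.47 ± 0.11 at 24 h (adjusted p = 0.0139 and 0.0025), the first lost without 15 h replicate 1 or 2. Stmn4 was at 0.20, 0.21 and 0.24 (SE 0.09) and missed the threshold at each time (adjusted p = 0.0968, 0.0786 and 0.0524). It was called higher at 5 h with median centring (0.38) and with the ratios (0.35), and at 24 h without control replicates 1 and 3 (0.25).

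Nefm, the medium neurofilament subunit (ILMN_1225279), was the only neurofilament member detected, and it rose at 5 h. Its levels were 7.43, 7.51 and 7.81 in the controls, 8.0, 7.97 and 7.89 at 5 h, 7.54, 7.53 and 7.40 at 15 h, and 7.56, 7.45 and 7.66 at 24 h. The 5 h arrays lay above every control and every later array. The rise was 0.40 ± 0.09 (1.32-fold, adjusted p = 0.00257), and the later differences were -0.07 and 0.00 (SE 0.09).

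Motor and transport genes gave 13 probes, of which 9 fell at 15 h and 8 at 24 h. By brightest probe, 6 and 5 of 9 genes fell, where 23.4% and 21.9% of all probes were lower. Kif21b, a kinesin that limits microtubule growth (ILMN_1254763), was at 7.06, 7.20 and 7.58 in the controls, 7.47, 7.50 and 7.22 at 5 h, 6.69, 6.17 and 5.98 at 15 h, and 5.85, 5.89 and 6.80 at 24 h. Every late array was below every control, though 24 h replicate 3 was close to them. It fell by 0.96 ± 0.19 at 15 h and 1.06 ± 0.19 at 24 h (1.95- and 2.09-fold, adjusted p = 0.000715 and 0.00033). A dimmer Kif21b probe (ILMN_2668444) fell by 0.58 and 0.60 (SE 0.23, adjusted p = 0.0486 and 0.0444), calls lost in 12 of 15 fits without 1 array.

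Klc1, a light chain that links kinesin-1 to its cargo, fell late by both of its probes. The brighter (ILMN_2605756) was at 12.40, 12.50 and 12.60 in the controls, 12.57, 12.75 and 12.74 at 5 h, 11.72, 11.77 and 11.86 at 15 h, and 11.81, 11.88 and 11.69 at 24 h. Late arrays lay below all controls, and 5 h replicates 2 and 3 above them. It fell by 0.70 ± 0.08 at both late times (adjusted p = 2.97e-06 and 3.7e-06), and at 5 h it was at 0.20 ± 0.08 (adjusted p = 0.0647). The 5 h value passed the threshold with median centring (0.40) and the authors' ratios (0.37). The sequence before its start site, chr12:111758618-111758867 (plus strand, GRCm38.p6, RefSeq), is shown as the other late-falling member with CRE letters, marked as above.
Klc1: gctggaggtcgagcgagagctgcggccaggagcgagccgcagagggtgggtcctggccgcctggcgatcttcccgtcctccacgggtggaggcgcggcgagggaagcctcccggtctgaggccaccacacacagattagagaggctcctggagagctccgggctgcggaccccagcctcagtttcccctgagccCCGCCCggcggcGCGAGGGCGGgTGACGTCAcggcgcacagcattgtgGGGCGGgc
Its CRE match started 33 bases before the start site and followed an Egr match at 44 bases that overlaps a GC box, with 2 further GC boxes.

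The kinesin-1 heavy chains Kif5a and Kif5c moved differently over time. Kif5c (ILMN_1216662), whose window also held CRE letters, was at 12.66, 12.89 and 13.09 in the controls, 12.32, 12.20 and 12.19 at 5 h, 12.65, 12.83 and 12.53 at 15 h, and 12.64, 12.86 and 13.02 at 24 h. Only the 5 h arrays were apart, below all others. It fell by 0.62 ± 0.11 at 5 h (adjusted p = 0.000426) and was at -0.18 ± 0.11 and -0.01 ± 0.11 later, so that it rose by 0.43 ± 0.13 from 5 h to 15 h and by 0.60 ± 0.13 from 5 h to 24 h (adjusted p = 0.0165 and 0.00193). At 24 h it was lower than the controls with median centring (-0.37, adjusted p = 0.015) and with the authors' ratios (-0.30, adjusted p = 0.0151). Kif5a (ILMN_2645752) fell by 0.42, 0.56 and 0.48 at the 3 times (SE 0.13, adjusted p = 0.0208, 0.00248 and 0.00867), the first of these lost under both other scalings and without 5 h replicate 1 or 3.

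Kif3c, a subunit of kinesin-2, fell at each time by its brighter probe (ILMN_2593410), by 0.40, 0.48 and 0.54 (SE 0.07, adjusted p = 0.00042, 4.68e-05 and 1.6e-05). Its other probe (ILMN_2590729) was at -0.04 ± 0.08 at 5 h and fell by 0.58 and 0.32 later. Rufy3, which takes part in axon specification, fell by 0.53, 0.53 and 0.64 (SE 0.09, adjusted p = 0.000377, 0.000234 and 4.51e-05), with every kainate array below every control.

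Mapk8ip1, the scaffold JIP1 that binds kinesin-1 and JNK (ILMN_2760485), was at 10.23, 10.37 and 10.46 in the controls, 10.47, 10.64 and 10.68 at 5 h, 10.06, 10.17 and 10.09 at 15 h, and 10.25, 10.30 and 10.02 at 24 h. The 5 h arrays lay just above and the 15 h arrays just below the controls. The rise of 0.24 ± 0.09 at 5 h (adjusted p = 0.0413) was lost in 8 of 15 fits without 1 array and without control replicates 1 and 3 (0.20). The fall of 0.25 ± 0.09 at 15 h (adjusted p = 0.0273) was lost in 4 of them. At 24 h the value of -0.17 passed the threshold with median centring (-0.61) and with the ratios (-0.53). Kif1a, the synaptic vesicle precursor motor, was not called, at 0.11, 0.03 and 0.17 (SE 0.19). Fez1, an adaptor of kinesin-1, was not called by either probe, and its brighter probe had differences of 0.07, 0.02 and 0.04 (SE 0.07). Under the other scalings both Fez1 probes had calls, which turned direction between times for ILMN_1256371 (0.23 at 5 h and -0.23 at 24 h with the ratios).

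Of 4 growth cone genes by brightest probe, 2 fell late and 1 rose early. Of all probes, 23.4% and 21.9% were lower at 15 h and 24 h, and 17.9% higher at 5 h. Gap43 (ILMN_1234990) was at 12.99, 13.13 and 13.44 in the controls, 13.30, 13.36 and 13.19 at 5 h, 12.49, 12.46 and 12.47 at 15 h, and 12.58, 12.58 and 12.32 at 24 h. Controls and 5 h overlapped, and all late arrays were below both. It fell by 0.71 ± 0.11 and 0.69 ± 0.11 (1.63- and 1.61-fold, adjusted p = 5.53e-05 and 8.04e-05). Basp1, which like Gap43 binds calmodulin and the inner membrane (ILMN_2611812), was at 8.09, 8.24 and 8.5 in the controls, 8.58, 8.39 and 8.64 at 5 h, 7.48, 7.72 and 7.80 at 15 h, and 7.85, 8.19 and 7.10 at 24 h. The 15 h arrays were below the controls, and 24 h replicate 2 overlapped them. It fell by 0.59 ± 0.18 and 0.54 ± 0.18 (adjusted p = 0.0122 and 0.0211), the first lost without 15 h replicate 1 and the second without 24 h replicate 3, which left -0.23.

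Marcksl1, a MARCKS relative that binds actin and calmodulin, rose at 5 h by all 4 probes. The probe with the largest change (ILMN_1215632) was at 9.24, 9.42 and 9.95 in the controls, 10.59, 10.45 and 10.51 at 5 h, 9.52, 9.36 and 9.49 at 15 h, and 9.89, 9.77 and 8.84 at 24 h. The 5 h arrays were above all others, and the later arrays lay among the controls except 24 h replicate 3, which was below them. The rise was 1.01 ± 0.20 (2.01-fold, adjusted p = 0.00078), and ILMN_2650060 and ILMN_2701891 rose by 0.74 ± 0.24 and 0.63 ± 0.21 (adjusted p = 0.0229 and 0.0252), both calls lost without any 1 of the 3 arrays at 5 h. The brightest probe (ILMN_1250438) was at 12.05, 12.15 and 12.39 in the controls and 12.63, 12.49 and 12.39 at 5 h, a rise of 0.30 ± 0.11 (adjusted p = 0.0472) that was lost in 11 of 15 fits without 1 array. At 24 h this probe stood at 0.29 ± 0.11 (adjusted p = 0.0527), while the other 3 were at -0.01, -0.14 and -0.18. Without 24 h replicate 3 those 3 were at 0.32, 0.28 and 0.20, and the brightest at 0.41. Marcks itself was at -0.08, -0.16 and -0.22 (SE 0.09) and was not called. At 24 h it was lower with median centring (-0.63) and with the authors' ratios (-0.56).

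Actin and membrane skeleton genes gave 6 probes, of which 2 rose at 5 h, 2 fell at 15 h, and 1 rose and 1 fell at 24 h. By brightest probe, 1 of 4 genes rose at 5 h, 2 fell at 15 h and 1 fell at 24 h. Of all probes, 17.9% were higher at 5 h, 23.4% lower at 15 h, and 21.1% higher and 21.9% lower at 24 h. Cfl1, cofilin, which severs actin filaments (ILMN_1213376), was at 8.01, 8.31 and 8.60 in the controls, 8.93, 9.19 and 9.0 at 5 h, 8.39, 8.63 and 8.5 at 15 h, and 8.10, 8.19 and 8.03 at 24 h. All 5 h arrays were above all controls, and later arrays overlapped them. It rose by 0.76 ± 0.12 at 5 h (1.69-fold, adjusted p = 0.000186) and was at 0.22 ± 0.12 and -0.18 ± 0.12 later. The 15 h value passed the threshold without control replicates 1 and 3 (0.34), and that at 24 h with median centring (-0.51) and with the ratios (-0.40).

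Tagln3, a neuronal relative of transgelin (ILMN_2745930), was at 10.53, 10.92 and 11.05 in the controls, 10.49, 10.55 and 10.76 at 5 h, 10.29, 10.30 and 10.48 at 15 h, and 10.70, 10.67 and 10.42 at 24 h. Only the 15 h arrays lay below all controls. It fell by 0.51 ± 0.11 at 15 h (adjusted p = 0.00167) and was at -0.27 ± 0.11 at 24 h (adjusted p = 0.0725), a value of -0.73 with median centring and -0.65 with the ratios. Dbn1, drebrin of dendritic spines, fell by 0.42 ± 0.10 and 0.27 ± 0.10 at 15 h and 24 h (adjusted p = 0.00286 and 0.0383), the latter lost in 5 of 15 fits without 1 array and at -0.16 without 24 h replicate 3. Ank3, ankyrin-G of the axon initial segment, was not called by its brightest probe (ILMN_1227817; -0.07, -0.31 and -0.18, SE 0.23). Without control replicates 1 and 3 that probe was lower at all 3 times (-0.39, -0.62 and -0.50), and at 24 h also with median centring (-0.54). Another Ank3 probe, ILMN_1223963, was at 4.66, 4.96 and 5.21 in the controls and 5.20, 5.42 and 5.80 at 5 h, a rise of 0.50 ± 0.16 (adjusted p = 0.0211) that was lost without 5 h replicate 2 or 3. ILMN_2622306 was detected on no control and on 2 of 3 arrays of each kainate time, at 4.77, 4.97 and 4.96 at 24 h. There it was at least 1.07-fold higher than the controls (adjusted p = 0.0293), a call lost under both other scalings and without control replicate 2 or 24 h replicate 2 or 3.

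The adhesion molecules of the list belong to the immunoglobulin superfamily and guide axons. Chl1, close homolog of L1, fell late by its brighter probe (ILMN_1223533), which was at 10.40, 11.01 and 11.22 in the controls, 10.91, 10.98 and 10.89 at 5 h, 9.73, 9.89 and 9.73 at 15 h, and 9.90, 9.67 and 9.58 at 24 h. Late arrays were all below the controls, of which replicates 1 and 3 were the lowest. It fell by 1.09 ± 0.17 and 1.16 ± 0.17 (2.13- and 2.23-fold, adjusted p = 5.89e-05 and 3.71e-05). Its dim probe (ILMN_2687300) was at 4.71, 5.04 and 5.33 in the controls and at 5.89, 5.43 and 5.65 at 5 h, above all controls, a rise of 0.63 ± 0.15 (adjusted p = 0.00293). At 15 h this probe was detected on no array and was lower than the controls, which were at least 1.23-fold higher (adjusted p = 0.0411), a call lost in 7 of 15 fits without 1 array and with the ratios.

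Ncam1, the neural cell adhesion molecule (ILMN_2722864), rose at 5 h and 15 h. It was at 7.68, 7.83 and 7.92 in the controls, 8.10, 8.24 and 8.80 at 5 h, 8.66, 8.5 and 8.71 at 15 h, and 8.26, 8.18 and 7.96 at 24 h. Every kainate array lay above every control. It rose by 0.56 ± 0.13 at 5 h and 0.80 ± 0.13 at 15 h (1.47- and 1.75-fold, adjusted p = 0.00263 and 7.93e-05), and at 24 h the difference of 0.32 ± 0.13 missed the threshold (adjusted p = 0.0575). Cntn2, an axonal contactin also called TAG-1, fell by 0.59 ± 0.21 at 5 h and 0.75 ± 0.21 at 24 h (adjusted p = 0.0396 and 0.00975), with -0.53 ± 0.21 at 15 h (adjusted p = 0.0535). The 5 h call was lost in 7 of 15 fits without 1 array, and the 24 h call without 24 h replicate 3, which left -0.47. The 15 h value passed the threshold with both other scalings (-0.67 and -0.62) and without control replicates 1 and 3 (-0.79). Nrcam fell at 15 h alone, by 0.29 ± 0.10 (adjusted p = 0.0299, lost in 6 of 15 fits without 1 array). L1cam was at -0.28, -0.41 and -0.25 (SE 0.19) and was not called, though without control replicates 1 and 3 it passed the threshold at all 3 times (-0.51, -0.64 and -0.48).

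Both other neuronal genes fell late, where 23.4% and 21.9% of all probes were lower at 15 h and 24 h. Uchl1, an abundant neuronal deubiquitinase (ILMN_1225261), was at 12.49, 12.75 and 12.87 in the controls, 12.56, 12.59 and 12.53 at 5 h, 12.01, 11.86 and 12.05 at 15 h, and 12.26, 12.21 and 11.86 at 24 h. The late arrays lay below all controls. It fell by 0.75 ± 0.11 and 0.61 ± 0.11 (adjusted p = 2.7e-05 and 0.000209). Rtn1, a reticulon of the endoplasmic reticulum (ILMN_2758070), was at 13.77, 13.86 and 13.93 in the controls, 13.93, 13.88 and 13.85 at 5 h, 13.48, 13.49 and 13.52 at 15 h, and 13.50, 13.41 and 13.32 at 24 h. Its late arrays too were below all controls. It fell by 0.36 ± 0.07 and 0.45 ± 0.07 (adjusted p = 0.000641 and 0.000106), and a dimmer probe (ILMN_1254697) by 0.79 ± 0.14 and 0.88 ± 0.14.

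Grouped by their calls at 5 h, 15 h and 24 h, 19 of the 57 probes (33.3%) were not called at 5 h and lower at both late times, a pattern that 8.09% of all tested probes had. A further 10 (17.5%) were called at no time, against 34.5% of all probes. Another 7 (12.3%, against 5.17%) were higher at 5 h alone, 4 of them Marcksl1, and 5 (8.77%, against 9.04%) were lower at all 3 times. Only the member probes of Tuba1a and Mapre3 were higher at 5 h and lower at both late times, as were 0.721% of all probes. Dclk1 alone among the members was lower at 5 h and higher at both late times, as were 0.657% of all probes. A moderated F test over the 3 times called 41 of the 57 member probes and 61.2% of all probes.

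A wider list of 56 further cytoskeleton and axon genes, of which 44 were tested, held members that rose and members that fell at each time. Of all probes, 17.9%, 21.8% and 21.1% were higher and 20.8%, 23.4% and 21.9% lower at 5 h, 15 h and 24 h. On the list, 10 genes rose and 7 fell at 5 h, 8 rose and 16 fell at 15 h, and 6 rose and 14 fell at 24 h. The list had medians of -0.04, -0.24 and -0.19. Its largest falls at 24 h were in Cntn1, an axonal adhesion molecule (-1.38 ± 0.13, limma adjusted p = 3.38e-07), Tubb4a, a beta-tubulin (-1.18 ± 0.20, adjusted p = 0.000181), and Dync1i1, a dynein intermediate chain (-0.97 ± 0.09, adjusted p = 5.49e-07). Its largest rises were in Vim, the intermediate filament of glia and progenitors (1.36 ± 0.08, adjusted p = 1.65e-09), Tuba1c, an alpha-tubulin (1.11 ± 0.20, adjusted p = 0.000254), and Enah, an actin regulator (0.86 ± 0.08, adjusted p = 1.96e-07). Vim is also on the neural progenitor list. Tubb6, a beta-tubulin, rose earlier, by 2.49 ± 0.14 at 5 h and 1.54 ± 0.14 at 15 h (limma adjusted p = 1.66e-09 and 1.85e-07). Among the tubulins of the wider list at 15 h, Tubb6 and Tuba1c were higher, and Tubb4a, Tubb4b and Tubg1 lower. Tubb5 and Tuba8 were not called there. Median centring gave 3 rises and 26 falls at 24 h, where 10.7% of all probes were higher and 37% lower. Kif5b and Kif2a were detected on no array.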

How the data were processed

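RNA of 15 samples was measured on 1-colour Illumina bead arrays. The intensity of a target is a mean over beads that the authors exported from BeadStudio 3.2.3 without normalization, per the file headers. The deposited detection score is a fraction that equals 1 minus the p-value of detection over the negative control beads. The authors' deposited ratio divides each signal by its array's median and then by the target's median over the controls, a rule read from the values, which met it within 1.0% for 100.0% of values. A further 9 arrays of the deposited table, with 72 columns, matched no sample and were not used. Probes were named from the platform annotation, updated to GRCm38.p6 symbols.

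The steps made here were limma's neqc (background correction, offset 16, quantile normalization, log2) on 24606 of 24607 targets, leaving out 1 target whose detection p was above 0 although its signal exceeded 1000. The 14154 probes that 3 or more of the 15 arrays detected (p below 0.05) entered 1 fit of 4 group means (lmFit and eBayes, 15.8 degrees of freedom, errors as SE). Moderated two-sided tests covered 6 contrasts, adjusted by Benjamini-Hochberg over all 14154 probes, with a threshold of 0.05, and were tested on simulated data. Fits ran in limma 3.58.1 under R 4.3.3, and figures were drawn with matplotlib 3.10.9 under Python 3.11.15. Per-array values are given for up to 2 members per role with the largest change, for every riser and for Tubb2a and Tubb2b, with the brightest probe speaking for a gene. The members, lists and rules were chosen with earlier results of these data known. A total of 27 alternative settings, listed in part in the closing section, recomputed each result. Calls over all probes are given only for the main fit, both other scalings and the fit without control replicates 1 and 3. Precision is limited by the number of arrays.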

Additional observations from a re-analysis of the deposited data

Results flagged for a closer look

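The results below have a difference from the controls that was called in opposite directions at different times, with the difference between the times itself past the threshold in limma. Tuba1a (ILMN_2494251), higher at 5 h and lower later, differed by -1.62 between 15 h and 5 h (adjusted p = 4.48e-05) and by -1.98 between 24 h and 5 h (adjusted p = 6.97e-06). Mapre3 (ILMN_1232412), with the same order, differed by -1.05 (adjusted p = 0.000226) and -1.02 (adjusted p = 0.000266). Dclk1 (ILMN_1217517), lower at 5 h and higher later, differed by 0.76 (adjusted p = 0.000107) and 0.80 (adjusted p = 6.6e-05). Mapk8ip1 (ILMN_2760485) differed by -0.49 between 15 h and 5 h (adjusted p = 0.00151), and the dim Chl1 probe (ILMN_2687300), which no 15 h array detected, was at least 1.9-fold lower at 15 h than at 5 h (adjusted p = 0.000272). Dixon's test over the 6 controls picked out 0 of the 57 member probes. It looks for a single extreme array, so it can miss control replicates 1 and 3. Both lay below the other 4 controls for 27 probes.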

How the results depend on the processing

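With median centring in place of quantile normalization, 4 member probes were lower at 5 h, 1 was higher at 15 h and 0 at 24 h, 1 was higher at 15 h than at 5 h, 3 were lower at 24 h than at 15 h, and 0 were higher and 46 lower at 24 h than at 5 h. On the wider list, 3 genes were lower at 5 h, and 3 higher and 26 lower at 24 h. Of all 14154 probes, 1226 were then higher at 15 h than at 5 h, and 380 lower at 24 h than at 15 h. Against 5 h, 775 were higher and 5454 lower at 24 h. Against the controls, 13.3% were lower at 5 h, 17.3% higher at 15 h, and 10.7% higher and 37% lower at 24 h. With the authors' ratios, 19 member probes were higher and 5 lower at 5 h, 0 were higher at 24 h, 1 was higher at 15 h than at 5 h, 2 were lower at 24 h than at 15 h, and 1 was higher and 44 lower at 24 h than at 5 h. The wider list then had 4 lower at 5 h and 26 lower at 24 h. Of all probes, 1398 were then higher at 15 h than at 5 h, and 498 lower at 24 h than at 15 h. Against 5 h, 852 were higher and 4866 lower at 24 h. Against the controls, 21.6% were higher and 14.8% lower at 5 h, and 11.9% higher and 35.1% lower at 24 h. Uncalled values at 24 h turned to called falls with both scalings for Fez1 (ILMN_1256371; -0.30 with centring and -0.23 with ratios) and Nrcam (ILMN_1245780; -0.38 and -0.30). Each of these scalings applies the same factor to every probe of an array, and the ratios lack the background correction made here. Their distance from the quantile-normalized values differed between probes. With centring at 24 h, Stmn1 moved from -0.39 to -0.86, and a dim Map2 probe (ILMN_1259017) from -0.42 to -0.36.

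Without control replicates 1 and 3, 15 member probes were lower at 5 h, 4 were higher at 15 h and 4 at 24 h, 1 was lower at 24 h than at 15 h, and 14 genes of the wider list were lower at 5 h. Of all probes, 24.3% were then lower at 5 h, and 24.1% and 23.4% higher at 15 h and 24 h. Counting 1 probe per gene left 7 higher at 5 h. Higher calls at 24 h numbered 4 with an offset of 50, without background correction, with probes detected on all 15 arrays and with detection scores as deposited, and 5 with limma-trend and robust fitting. Leaving out 1 array at a time gave 6 to 13 higher and 4 to 11 lower member probes at 5 h. At 15 h there were 2 to 4 higher and 23 to 36 lower, and at 24 h 2 to 3 higher and 22 to 32 lower. Against 5 h, 1 to 2 were higher at 15 h. The cause was not tested for any of these changes in counts. Of the 20, 33 and 33 member probes called at 5 h, 15 h and 24 h, 9, 23 and 21 kept their call in all 15 fits that left out 1 array.

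Among the kainate arrays, replicate numbers mark a shared beadchip, whereas the numbers of the controls do not match the beadchips in this way. Deviations of same-numbered kainate arrays from their group means correlated at -0.114 to 0.288 in 9 pairs, so the numbers were not taken to pair the samples. With the beadchip as a replicate block, calls were 12 higher and 7 lower at 5 h, 2 and 30 at 15 h, and 4 and 28 at 24 h, without shares of all probes to set beside them.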
